A study of Mus musculus with 12 samples.

Results

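Transcripts of 9 selenoprotein genes were followed in the livers of wild type mice and mice lacking Siah2, a ubiquitin ligase. The genes were Dio1, Gpx1, Gpx4, Txnrd1, Txnrd2, Sepp1, Sepw1, Selk and Sephs2, and all 9 of these symbols were found among the 23420 gene symbols counted. Mice were C57BL/6, about 20 weeks old, and their livers were taken at ZT10 (Zeitgeber time 10 h, late in the light phase). The 4 groups of 3 mice were wild type females (WTF), Siah2 knockout females (KOF), wild type males (WTM) and Siah2 knockout males (KOM), and no other allele or treatment was named for any of them. The study describes individual livers, whereas the sample labels speak of RNA pooled from 3 mice. Each library is called a mouse below, following the study. The p-values below set group differences against the spread between libraries, with 3 libraries per group. The set was selected on Dio1, whose level in knockout males had already been seen in these libraries, so the comparison of knockout with wild type males, its difference from the female comparison and all sex comparisons of Dio1 are given as descriptions with no test.

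Selenoproteins carry selenocysteine, an amino acid placed at an in-frame UGA codon that would otherwise end translation. A hairpin in the 3′ untranslated region of the mRNA, bound by SECIS-binding protein, directs this reading. Liver takes a central place in selenium handling because hepatocytes make and secrete selenoprotein P, which carries selenium to other organs. Dio1 is the deiodinase of liver that converts thyroxine to the active thyroid hormone triiodothyronine, and thyroid hormone in turn raises its transcription.

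The codon that defines the family is shown for each gene, since it is the feature the 9 genes share that played no part in measuring them. The coding sequences are from GENCODE M1 (mouse build NCBIM37), read 5′ to 3′ on the coding strand, with the in-frame TGA in capitals.
Dio1: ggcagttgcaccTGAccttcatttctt
Gpx1: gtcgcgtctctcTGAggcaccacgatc
Gpx4: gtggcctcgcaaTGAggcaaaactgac
Txnrd1: cagtctggctgcTGAggttaa
Txnrd2: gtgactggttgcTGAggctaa
Sepp1 (first): cttcaagccagcTGAtacttgtgtctt
Sepw1: tattgtggagctTGAggctataagccc
Selk: atggctggtggaTGAggaaggtaa
Sephs2: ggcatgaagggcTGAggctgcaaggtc
Of these, 8 genes held 1 such codon and Sepp1 held 10, of which the first was codon 59 of 380. In Dio1 the codon was 126 of 257, in Gpx1 47 of 201, in Gpx4 129 of 253, in Sepw1 13 of 88 and in Sephs2 63 of 452. In both thioredoxin reductases only 1 codon followed it before the stop (codon 498 of 499 in Txnrd1 and 523 of 524 in Txnrd2), and in Selk 2 followed (codon 92 of 94). Sepw1 and Sephs2 also end in a TGA, so in these genes the same 3 bases stand for selenocysteine inside the reading frame and for the stop at its end. Positions are those in the longest complete coding sequence of each gene that held an in-frame TGA. For Gpx4 this was transcript Gpx4-002, and which form liver uses was not examined.

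The other 9 Sepp1 codons lie between codons 259 and 377, several of them close together. At codons 366 and 368 the windows were gccaaccccaacTGAagctgagataat and cccaactgaagcTGAgataatcagacc, and at codons 375 and 377 they were cagaccaggaagTGAaaatgacattca and aggaagtgaaaaTGAcattcaaactaa, so that the lower-case part of each window holds the neighbouring codon of the pair.

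On build GRCm38.p6, which is the mm10 build that the submitters' processing notes name, Dio1 lies at chr4:107291465-107307168 on the minus strand. Gpx1 lies at chr9:108339080-108340342, Gpx4 at chr10:80047166-80056439, Txnrd1 at chr10:82833951-82897724, Txnrd2 at chr16:18426417-18479073, Sepp1 at chr15:3270767-3280510 and Selk at chr14:29968380-29975074, all on the plus strand. Sepw1 lies at chr7:15917208-15922371 and Sephs2 at chr7:127271879-127274059 on the minus strand.

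Libraries were made with the QuantSeq 3′ kit, which yields 1 read per transcript near its 3′ end, so levels are not scaled by length. They held 1293688 to 4056144 counts (median 2670267.5), and levels are given as CPM (a read count divided by its library's total, in the usual per-million unit, with totals TMM-scaled over the 12 libraries). All 8 hepatocyte markers had counts in every group, with a summed level of 33404 to 52314 CPM. The library of wild type female 1091 stood apart. Its mean Spearman correlation with the other WTF libraries was 0.853, against 0.900 or above in the other 11 libraries within their groups. Many WTF results are also given without it, and a value given only with it may still depend on it. Siah2 itself had 13.6 ± 2.96 CPM in WTF, 10.7 ± 1.57 in KOF, 21.8 ± 5.18 in WTM and 13.9 ± 4.08 in KOM (mean ± SD, n = 3). Where the deletion lies relative to the 3′ read was not given, so this level is no check of the labels.

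The 9 transcripts differed widely in level. Sepp1 and Gpx1 led in every group, at group means of 4056 to 5827 CPM for Sepp1 and 2496 to 4310 CPM for Gpx1. Sephs2 followed at 330.5 to 548 CPM, then Selk at 117 to 162 CPM. Dio1, Gpx4 and Txnrd1 had group means of 51.2 to 107 CPM, Txnrd2 of 30.7 to 36.5 CPM, and Sepw1 was lowest at 8.04 to 15.2 CPM, or 17 to 46 reads per library. The 4 haemoglobin genes and Rpl30, which have near-identical copies in the genome, had no count and at most 1.08 CPM in any mouse, and how reads matching several places were counted is not stated, so this order between genes holds for counted reads only. Together the 9 genes took 0.686 to 1.24% of all counts. Their summed level was 10999.6 ± 773 CPM in WTF, 7345 ± 386 in KOF, 8344 ± 773 in WTM and 8906 ± 458 in KOM (mean ± SD, n = 3), and the KOF mice, at 6903 to 7617 CPM, lay below all other mice, in which the lowest sum was 7770 CPM. Sepp1 and Gpx1 make up most of that sum. In whole liver, fewer cells of a type and less RNA per cell cannot be told apart.

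**Figure D1:**
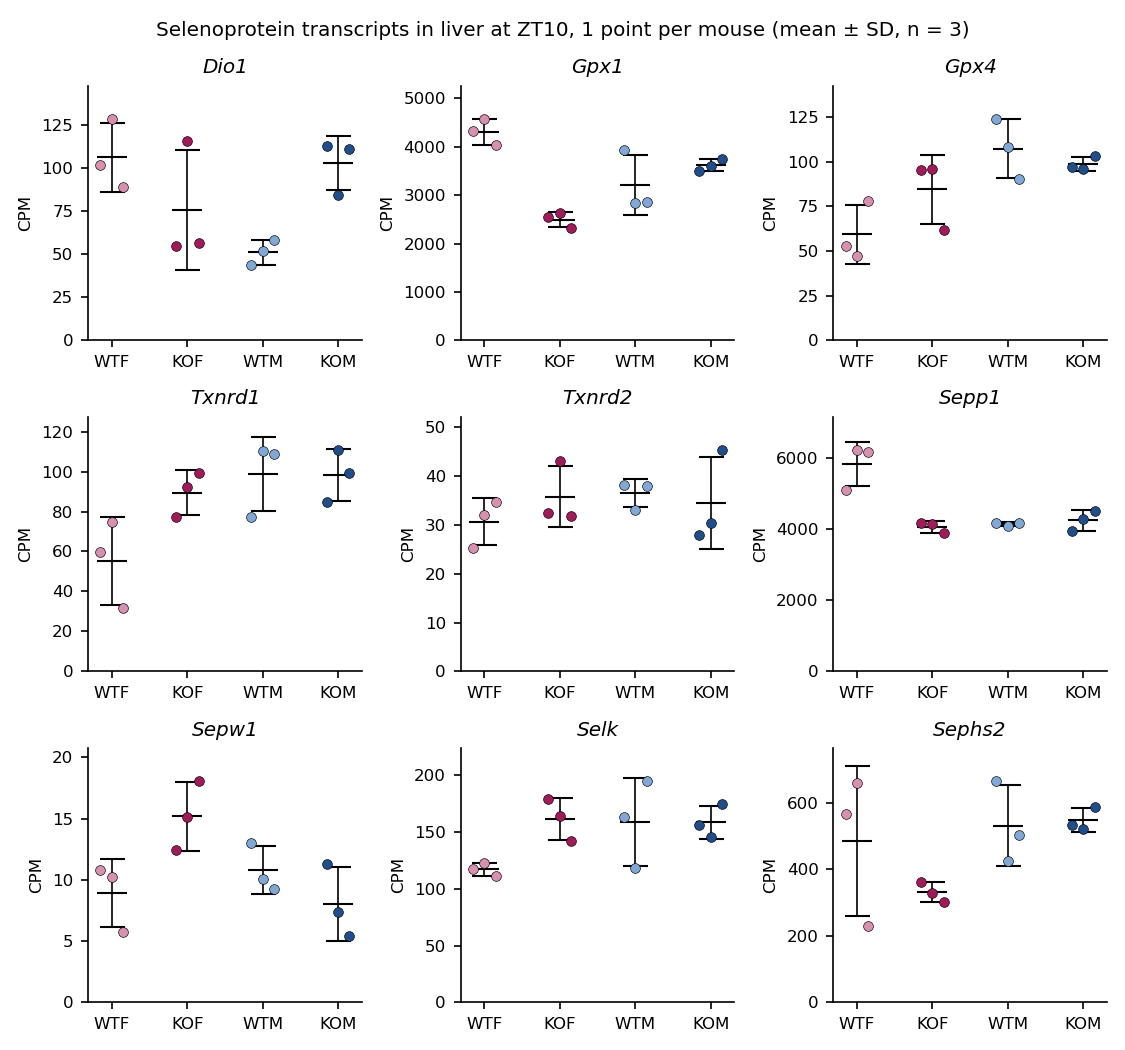
CPM of the 9 selenoprotein transcripts (vertical axes, linear from 0) in each mouse of the 4 groups (horizontal axes; WTF and WTM, wild type females and males; KOF and KOM, Siah2 knockout females and males). Points are mice and bars are mean ± SD of 3 mice. Dio1 in KOM sits at 84.6 to 113 CPM above the WTM mice at 43.6 to 58.2 CPM, and Gpx1 in KOF at 2319 to 2624 CPM lies below every other mouse.

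Dio1 was measured at 43.6, 51.8 and 58.2 CPM in the WTM mice and at 113, 84.6 and 111 CPM in the KOM mice. Every KOM mouse was above every WTM mouse, a mean of 103 ± 15.8 against 51.2 ± 7.32 CPM (SD, n = 3). The log2 fold change was 0.98 (SE 0.18), a 1.98-fold higher level, and it stayed between 0.90 and 1.11 when each mouse was left out in turn. Across all genes tested in males, 8.87% had ranges that did not overlap, and 0% passed edgeR's quasi-likelihood test at an adjusted p of 0.05. The red blood cell marker Alas2 was 83.9 to 105 CPM in WTM and 103 to 154 CPM in KOM while the 4 haemoglobin genes of that list had no count in any library. The summed endothelial level (4 markers, all with counts) was 161 to 181 CPM in WTM and 146 to 161 CPM in KOM, the highest KOM mouse lying below the lowest WTM mouse, and the bile duct level (4 markers, all with counts) was 18.1 to 25.2 against 11.7 to 18.0 CPM. The part of these cells in the level of Dio1 was not tested.

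In females Dio1 lay the other way round, with more spread. It was 102, 128 and 89.2 CPM in the WTF mice and 54.7, 116 and 56.6 CPM in the KOF mice. KOF mouse 1104 lay within the wild type range and the other KOF mice below it. The log2 fold change of knockout against wild type was -0.50 (SE 0.32) and did not pass (edgeR quasi-likelihood test, adjusted p = 0.495). It ranged from -0.95 to -0.31 with each mouse left out, and without WTF mouse 1091 it was -0.60 (adjusted p = 0.231). The female minus male difference of the 2 log2 fold changes was -1.49 (SE 0.39), with values from -1.96 to -1.29 on leaving out a mouse, the largest size being that without KOF mouse 1104. In that comparison 0.255% of all genes passed edgeR's test.

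By group mean, Dio1 ordered as WTF (106 ± 20.04 CPM), KOM (103 ± 15.8), KOF (75.6 ± 34.7) and WTM (51.2 ± 7.32), and the ranges of each pair of neighbours in that order overlapped. Among wild types every female was above every male, with a log2 fold change of females against males of 1.08 (SE 0.24, 0.94 to 1.16 with each mouse left out). Among knockouts the value was -0.44 (SE 0.25) and the ranges overlapped. Without KOF mouse 1104 it was -0.88.

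The glutathione peroxidases reduce peroxides with glutathione, Gpx1 in the cytosol and Gpx4 acting on lipid hydroperoxides in membranes. Gpx1 had the smallest genotype p-value of the set in females. It was 4319, 4572 and 4039 CPM in WTF and 2544, 2624 and 2319 CPM in KOF, and every KOF mouse was below every mouse of the other 3 groups. The log2 fold change was -0.80 (SE 0.24), or 0.574 times the wild type level. With edgeR's quasi-likelihood test it did not pass over all genes (adjusted p = 0.162), whereas it passed with DESeq2 (adjusted p = 0.0143), with limma-voom and sample weights (adjusted p = 0.0106), in an edgeR fit of all 12 libraries (adjusted p = 0.0309) and in edgeR without WTF mouse 1091 (-0.83, adjusted p = 0.0158). All estimates with a mouse left out lay between -0.84 and -0.76.

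In males Gpx1 was 3927, 2835 and 2868 CPM in WTM and 3497, 3614 and 3752 CPM in KOM. The highest mouse was a wild type and the ranges overlapped, with a log2 fold change of 0.16 (SE 0.15, 0.10 to 0.34 with each mouse left out). The female minus male difference was -0.96 (SE 0.27).

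Between the sexes Gpx1 was placed differently in each genotype. In wild types all females lay above all males (0.46, SE 0.26, edgeR adjusted p = 0.447). In knockouts all females lay below all males, and Gpx1 passed (-0.53, SE 0.15, edgeR adjusted p = 0.0355; DESeq2 adjusted p = 0.000774). The edgeR call did not hold without any filter on low counts (adjusted p = 0.0551), in the fit of all 12 libraries (0.139), or on leaving out KOF mouse 1070 (0.0750) or 1104 (0.0973), or KOM mouse 1075 (0.0656), 1076 (0.0727) or 1081 (0.119), while the log2 fold change stayed between -0.57 and -0.51 in those fits.

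The Gpx4 estimate in females had the opposite sign to that of Gpx1. It was 52.7, 47.4 and 78.0 CPM in WTF and 95.5, 96.1 and 62.0 CPM in KOF, where WTF mouse 1091 and KOF mouse 1105 made the ranges overlap. The log2 fold change was 0.50 (SE 0.28, edgeR adjusted p = 0.426), and it was 0.77 without mouse 1091 (edgeR adjusted p = 0.0562) and 0.74 with limma-voom sample weights (adjusted p = 0.0414).

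In males Gpx4 was 124, 108 and 90.4 CPM in WTM and 97.3, 95.9 and 103 CPM in KOM, overlapping, with a log2 fold change of -0.12 (SE 0.17). Among wild types every female was below every male. That log2 fold change was -0.81 (SE 0.28, edgeR adjusted p = 0.198), and it passed without WTF mouse 1091 (-1.09, edgeR adjusted p = 0.0107), with limma-voom sample weights (-1.01, adjusted p = 0.0101) and in the edgeR fit of all 12 libraries (-0.85, adjusted p = 0.0465). Among knockouts it was -0.21 (SE 0.18, edgeR adjusted p = 0.519).

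Sepp1 encodes selenoprotein P, the secreted selenium carrier. It was 5105, 6210 and 6165 CPM in WTF and 4158, 4139 and 3872 CPM in KOF. All KOF mice were below all WTF mice, and WTF alone stood above the other groups, whose ranges overlapped one another at 3872 to 4489 CPM. The log2 fold change in females was -0.54 (SE 0.25) and did not pass (edgeR adjusted p = 0.344; DESeq2 adjusted p = 0.211). In males it was 4172, 4078 and 4169 CPM in WTM and 3932, 4287 and 4489 CPM in KOM, a log2 fold change of 0.02 (SE 0.13). Among wild types the females were above the males by 0.53 (SE 0.25, edgeR adjusted p = 0.362), and among knockouts the value was -0.06 (SE 0.15, edgeR adjusted p = 0.857).

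Sephs2, itself a selenoprotein, makes the selenophosphate from which selenocysteine is built. It was 566, 659 and 230.0 CPM in WTF, 362, 328 and 302 CPM in KOF, 664, 425 and 503 CPM in WTM, and 533, 522 and 588 CPM in KOM. WTF mouse 1091 had the lowest value of all 12, and the other WTF mice lay above all KOF mice. Among knockouts all females were below all males, 330.5 ± 29.8 against 548 ± 35.5 CPM (SD, n = 3), and Sephs2 was lower by a log2 fold change of -0.72 (SE 0.15, edgeR adjusted p = 0.00566). It passed on leaving out any 1 mouse (edgeR adjusted p = 0.0117 to 0.0410), with DESeq2 (adjusted p = 3.23e-05) and with limma-voom sample weights (0.00324), though not in the edgeR fit of all 12 libraries (0.196).

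For genotype, the female log2 fold change of Sephs2 was -0.57 (SE 0.35, edgeR adjusted p = 0.484). Without WTF mouse 1091 it was -0.89 (edgeR adjusted p = 0.0122) and with limma-voom sample weights -0.79 (adjusted p = 0.0304). Without WTF mouse 1090 it was -0.28 (edgeR adjusted p = 0.773), so both size and call rest on single WTF libraries. In males the value was 0.04 (SE 0.17). Among wild types females against males gave -0.11 (SE 0.36, edgeR adjusted p = 0.920), and 0.21 without mouse 1091.

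The thioredoxin reductases keep thioredoxin reduced, Txnrd1 in the cytosol and Txnrd2 in mitochondria. Txnrd1 was 59.6, 74.7 and 31.5 CPM in WTF and 77.1, 92.1 and 99.3 CPM in KOF. The groups did not overlap, by a narrow margin between WTF mouse 1090 and KOF mouse 1070, and the lowest value was again that of WTF mouse 1091. The log2 fold change was 0.68 (SE 0.31, edgeR adjusted p = 0.332), or 0.41 without mouse 1091 (edgeR adjusted p = 0.226).

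In males Txnrd1 was 77.2, 110 and 109 CPM in WTM and 84.8, 111 and 99.1 CPM in KOM, with a log2 fold change of -0.03 (SE 0.19). Wild type females were all below wild type males (-0.82, SE 0.31, edgeR adjusted p = 0.249). Without WTF mouse 1091 this value was -0.56 (edgeR adjusted p = 0.147). Knockout females against knockout males gave -0.13 (SE 0.17, edgeR adjusted p = 0.668). Txnrd2 was 25.3, 32.1 and 34.7 CPM in WTF, 32.5, 43.1 and 31.9 in KOF, 38.2, 33.2 and 38.1 in WTM, and 27.9, 30.4 and 45.3 in KOM, and all 4 groups overlapped. Its log2 fold changes were 0.21 (SE 0.25) for genotype in females, -0.07 (SE 0.23) in males, and -0.21 (SE 0.25) and 0.05 (SE 0.22) for females against males in wild types and knockouts, with edgeR adjusted p of 0.742, 0.747 and 0.928 for the tested ones.

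Sepw1 encodes a small thioredoxin-like protein and Selk a membrane protein of the endoplasmic reticulum. Sepw1 was 10.8, 10.2 and 5.73 CPM in WTF, 12.4, 15.1 and 18.1 CPM in KOF, 13.0, 10.1 and 9.28 CPM in WTM, and 11.3, 7.38 and 5.42 CPM in KOM. KOF mice were above all WTF and KOM mice and overlapped WTM. None of its tests passed. For genotype in females the log2 fold change was 0.74 (SE 0.34, edgeR adjusted p = 0.333), or 0.50 without WTF mouse 1091 (edgeR adjusted p = 0.296). For females against males in knockouts it was 0.92 (SE 0.33, edgeR adjusted p = 0.0852), or 1.25 without KOM mouse 1075 (edgeR adjusted p = 0.0472). In males the genotype value was -0.43 (SE 0.36).

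Selk was 118, 123 and 111 CPM in WTF and 179, 164 and 142 CPM in KOF, which did not overlap (0.45, SE 0.21, edgeR adjusted p = 0.341). In males it was 164, 118 and 195 CPM in WTM and 156, 145 and 174 CPM in KOM, a log2 fold change of -0.01 (SE 0.18), with a wide wild type range that held all KOM mice. Wild type females against males gave -0.41 (SE 0.24, edgeR adjusted p = 0.470) and knockouts 0.04 (SE 0.15, edgeR adjusted p = 0.914).

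**Figure D2:**
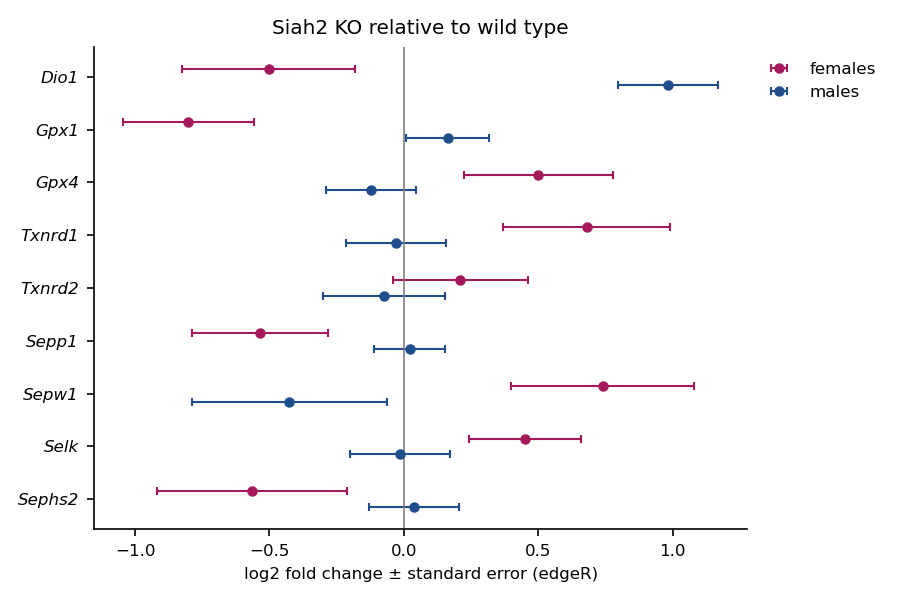
Log2 fold change of Siah2 knockout against wild type (horizontal axis, linear in log2) for the 9 transcripts (vertical axis), in females and in males. Points are edgeR estimates from 3 mice per group and bars are ± 1 standard error. In females the estimates spread from -0.80 (Gpx1) to 0.74 (Sepw1), and in males 8 of 9 lie between -0.43 and 0.16 while Dio1 lies at 0.98.

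Counted over the set, 5 of 9 transcripts were higher and 4 lower in KOF than in WTF, with a median log2 fold change of 0.21 against -0.03 over all 9465 genes tested. The ranges did not overlap for 5 of 9 (Gpx1, Txnrd1, Sepp1, Sepw1 and Selk), where 23.3% of all genes had this property. By edgeR's test 0 of 9 passed, where 0% of all genes did, and 1 of 9 (Gpx1) had an unadjusted p under 0.05. With DESeq2 1 of 9 passed, again Gpx1, against 3.7% of all genes, and with limma-voom sample weights 3 of 9 did, against 11.2%. Without WTF mouse 1091 edgeR called 2 of 9 (Gpx1 and Sephs2), against 9.64% of all genes. Because the set was chosen with results of these libraries known, its count is no independent evidence of a shared direction. The summed endothelial level was 195 to 298 CPM in WTF and 173 to 189 CPM in KOF without overlap. Alas2 was 20.1 to 25.2 CPM in WTF and 8.47 to 19.3 CPM in KOF, also without overlap. Stellate, hepatocyte and Kupffer cell levels overlapped between these groups. The part of these cells was not tested. The hepatocyte sum includes Pck1, at a mean of 4229 CPM in WTF and 12824 CPM in KOF. Its overlap therefore does not show an equal hepatocyte content.

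In males 1 of 9 transcripts, Dio1, had ranges that did not overlap, where 8.87% of all genes did and Dio1 is the gene the set was selected on, and the median log2 fold change was -0.01, the same to 2 decimals as over all 8823 genes tested.

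Between the sexes, 5 of 9 transcripts had ranges that did not overlap among wild types (Dio1, Gpx1 and Sepp1 higher in females, Gpx4 and Txnrd1 lower), against 22.7% of all genes. Of the 8 tested, 0 passed edgeR's test (1.39% of all genes did), 2 (Gpx4 and Txnrd1) had an unadjusted p under 0.05, 0 passed with DESeq2 (3.74% of all genes), and 1 passed with limma-voom sample weights (8.59% of all genes). Among knockouts 3 of 9 had ranges that did not overlap (Gpx1 and Sephs2 lower in females, Sepw1 higher), against 30.7% of all genes. Of the 8 tested, 2 passed with edgeR (Gpx1 and Sephs2), against 11.5% of all genes, and the same 2 with DESeq2, against 9.91%. Alas2 was 8.47 to 25.2 CPM in females and 83.9 to 154 CPM in males. The Kupffer cell level (6 markers, all with counts) was 284 to 719 CPM in KOF and 82.8 to 176 CPM in KOM, and in wild types 361 to 487 against 60.0 to 523 CPM. The endothelial level was above that of males in every female of each genotype (195 to 298 against 161 to 181 CPM in wild types, 173 to 189 against 146 to 161 CPM in knockouts). So was the level of 5 markers of other immune cells (10.8 to 20.1 against 2.79 to 5.53 CPM, and 6.26 to 13.2 against 1.13 to 4.77 CPM). The part of these cells was not tested. The wild type females enter both the female genotype comparison and the wild type sex comparison, and the knockout females both the former and the knockout sex comparison, so these counts share libraries.

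**Figure D3:**
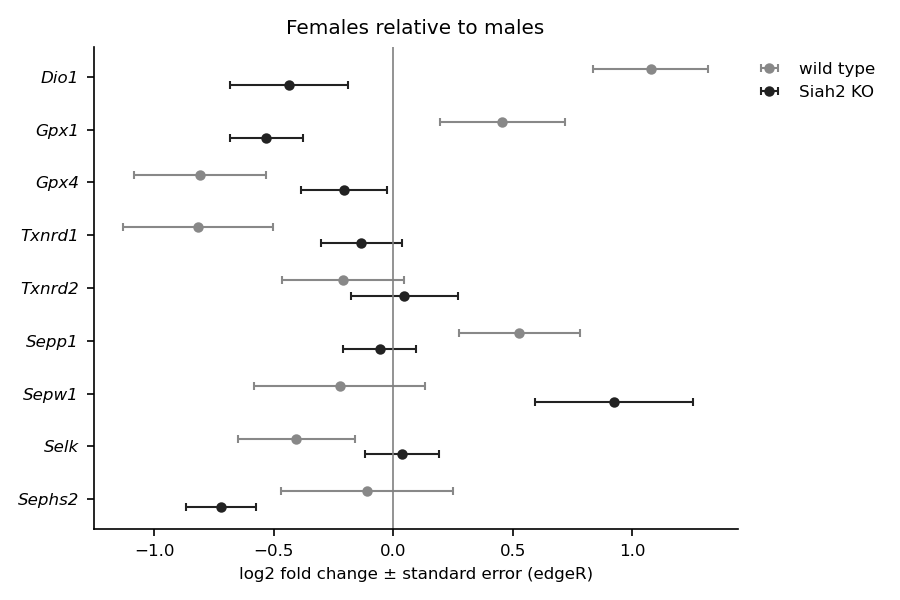
Log2 fold change of females against males (horizontal axis, linear in log2) for the 9 transcripts (vertical axis), in wild type and in Siah2 knockout mice. Points are edgeR estimates from 3 mice per group and bars are ± 1 standard error. Dio1 lies at 1.08 in wild types and -0.44 in knockouts, and Sephs2 at -0.11 and -0.72.

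The remaining selenoprotein genes were looked up as a list of 13 matched symbols, of which 6 passed the filter on low counts. Dio2, Dio3, Gpx2, Gpx3, Selm, Sepn1 and 1300018J18Rik (selenoprotein O) had group means of at most 2.67 CPM. Vimp, a protein of endoplasmic reticulum degradation, was the most abundant at 345 to 550 CPM by group mean. None of the 6 passed edgeR's test in any comparison (3 had an unadjusted p under 0.05 for genotype in females, 0 in males, 1 for the difference between the sexes, and 2 by sex in each genotype), and with DESeq2 the counts were 0 for genotype in each sex, 2 for sex in wild types and 1 for sex in knockouts. In females the smallest p-values for genotype belonged to 2810407C02Rik (selenoprotein T) and to Msrb1, a methionine sulfoxide reductase. The former had a log2 fold change of 0.68 (SE 0.26, edgeR adjusted p = 0.251), at 148 ± 45.4 CPM in WTF and 239 ± 8.27 CPM in KOF. Msrb1 had -0.53 (SE 0.23, edgeR adjusted p = 0.302). Without WTF mouse 1091 these log2 fold changes were 0.47 for 2810407C02Rik and -0.34 for Msrb1. In males the smallest p-values belonged to 2810407C02Rik (0.24) and Txnrd3 (0.22), both overlapping between groups. For the difference between the sexes they were those of Msrb1 (-0.62, SE 0.27) and Ept1 (1.07, SE 0.52). Without WTF mouse 1091 these differences were -0.43 and 0.77. Between sexes in wild types Ept1, an enzyme of phosphatidylethanolamine synthesis, had -1.46 (edgeR adjusted p = 0.0947, 0.0268 without WTF mouse 1091; DESeq2 0.00643) and 2810407C02Rik -0.88 (edgeR adjusted p = 0.156, 0.0421 without that mouse; DESeq2 0.0445). In knockouts 2810407C02Rik had -0.46 (edgeR adjusted p = 0.0779; DESeq2 0.0543) and Vimp -0.45 (edgeR adjusted p = 0.0827; DESeq2 0.0462).

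The machinery that makes and inserts selenocysteine, with the receptors that take up selenoprotein P, counted 14 matched genes, 10 of them tested. The median log2 fold change was 0.01 for genotype in females and 0.02 in males. In both sexes Sars, the seryl-tRNA synthetase that charges the selenocysteine tRNA with serine, was among the 2 smallest p-values. It was 61.7, 66.0 and 50.3 CPM in WTF, 38.2, 32.0 and 47.0 in KOF, 52.0, 58.3 and 47.7 in WTM, and 53.9, 95.9 and 71.5 in KOM. All KOF mice were below all other mice. Genotype gave -0.62 (SE 0.24, edgeR adjusted p = 0.253, 0.0487 without WTF mouse 1091 and up to 0.611 on leaving out another) in females and 0.48 (SE 0.22) in males, with a difference between the sexes of -1.10 (SE 0.33, edgeR adjusted p = 0.140, 0.0359 without mouse 1091). Between knockout females and males Sars passed (-0.92, SE 0.22, edgeR adjusted p = 0.0167; 0.00904 to 0.0875 with each mouse left out), the only gene of this list to do so in any comparison.

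The other named genes of that list did not pass. Lrp1, an endocytic receptor, had -0.60 (SE 0.38, edgeR adjusted p = 0.497) for genotype in females and -0.85 (SE 0.44) for the difference between the sexes, and without WTF mouse 1091 these were -0.94 (edgeR adjusted p = 0.0152) and -1.20 (0.0138). Scly, which recycles selenium from selenocysteine, had -0.52 (SE 0.27) for genotype in males. Between wild type sexes the smallest p-values were those of Secisbp2l (-0.71, SE 0.39) and Eefsec, the elongation factor for selenocysteine (0.36, SE 0.32). Without WTF mouse 1091 these log2 fold changes were -0.35 and 0.28.

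Thyroid hormone transport, binding and receptor genes, the partners of Dio1 in the same hormone pathway, numbered 17, with 16 tested. Of these, 0 passed edgeR's test or DESeq2 for genotype in either sex (2 had an unadjusted p under 0.05 in females and 0 in males), with medians of -0.09 in females and 0.01 in males. Slco1b2, a hepatic organic anion transporter, had -0.58 (SE 0.24, edgeR adjusted p = 0.286) in females, and the difference between the sexes was -0.81 (SE 0.28, edgeR adjusted p = 0.196; DESeq2 0.0381). Without WTF mouse 1091 these were -0.66 (edgeR adjusted p = 0.0380) and -0.89 (0.0351). In males the smallest p-values were those of Slco1a1 (0.38, SE 0.18) and the coactivator Ncoa1 (0.57, SE 0.28). The receptor genes Thra and Thrb had group means of 6.01 to 6.74 and 32.5 to 50.3 CPM.

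By sex more of these genes passed. Among wild types Slco1a1 passed, at 63.5, 28.5 and 29.3 CPM in WTF against 351, 213 and 342 CPM in WTM (-2.87, SE 0.37, edgeR adjusted p = 0.00322). Among knockouts 6 of 16 passed, 2 higher and 4 lower in females, where 11.5% of all genes passed, against 1.39% among wild types. Slco1a1 was 2.16, 7.36 and 45.7 CPM in KOF against 381, 401 and 407 CPM in KOM (-4.69, SE 0.58, edgeR adjusted p = 9.29e-05), and KOF mouse 1105 stood well above the other KOF mice. Slco1a4 (1.75, SE 0.17, edgeR adjusted p = 9.02e-06) and Slc10a1, the bile acid uptake transporter (1.02, SE 0.18, edgeR adjusted p = 0.00238), were higher in females. Slco1b2 (-0.58, edgeR adjusted p = 0.0408) was among the 4 lower. It lost the call on leaving out some mice, with adjusted p up to 0.156. Slco1a4 and Slc10a1 were also higher in every wild type female than in every wild type male, though neither passed edgeR's test there. Slco1a4 was 196 to 345 CPM in WTF and 78.0 to 135 CPM in WTM. Slc10a1 was 135 to 225 CPM in WTF and 98.6 to 128 CPM in WTM.

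Genes of liver known to respond to thyroid hormone, the downstream side of Dio1, numbered 12 with 9 tested, and the group was mixed. For genotype 0 of 9 passed edgeR's test in either sex (3 had an unadjusted p under 0.05 in females and 1 in males), and 2 passed with DESeq2 in females, namely Bcl3 and Pck1. Bcl3, a nuclear cofactor of NF-kB, was 15.9, 15.3 and 7.96 CPM in WTF, 4.60, 2.95 and 3.61 in KOF, 6.12, 7.04 and 6.81 in WTM, and 12.8, 9.11 and 7.39 in KOM. It was lower in every KOF than in every WTF mouse, where 23.3% of all genes had no overlap. In males it was higher in every KOM than in every WTM mouse (8.87% of all genes had no overlap). The female log2 fold change was -1.79 (SE 0.40, edgeR adjusted p = 0.106, DESeq2 adjusted p = 0.0304). The difference between the sexes was -2.30 (SE 0.52, edgeR adjusted p = 0.0786, DESeq2 adjusted p = 0.0179). Without WTF mouse 1091 the edgeR adjusted p was 0.00702 and 0.00685. Pck1, the gluconeogenic enzyme, had 1.59 (SE 0.51, edgeR adjusted p = 0.190, DESeq2 adjusted p = 0.0179) in females. WTF mouse 1091 had the lowest WTF level of Pck1, at 1879 CPM. Without that mouse the female Pck1 value was 1.25 (SE 0.39, edgeR adjusted p = 0.0702). In males the smallest p-values were those of Gpd2 (0.48, SE 0.20) and Cyp7a1 (-0.42, SE 0.24), both overlapping.

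By sex, none of these 9 passed edgeR's test among wild types (3 had an unadjusted p under 0.05 and 1, Cyp7a1, passed with DESeq2), where Cyp7a1 had 1.20 (SE 0.33, edgeR adjusted p = 0.130) and Bcl3 0.98 (SE 0.37, edgeR adjusted p = 0.238, 0.0387 without WTF mouse 1091). Among knockouts 6 of 9 passed, 3 in each direction, where 11.5% of all genes passed, against 1.39% among wild types. Cyp7a1, the rate-limiting enzyme of bile acid synthesis, was higher in females, at 537 ± 235 against 112 ± 45.0 CPM (2.26, SE 0.30, edgeR adjusted p = 0.000219). Cpt1a of fatty acid oxidation (1.02, SE 0.16, edgeR adjusted p = 0.00105) and Thrsp, a lipogenic protein (1.35, SE 0.36, edgeR adjusted p = 0.0249), were also higher, although Thrsp ranges overlapped. Klf9 (-0.65, edgeR adjusted p = 0.00951), the malic enzyme Me1 (-0.73, edgeR adjusted p = 0.0149) and Bcl3 (-1.34, edgeR adjusted p = 0.0393) were lower in females. With DESeq2 4 of the 9 passed (9.91% of all genes did), without Thrsp (adjusted p = 0.161) and Bcl3 (0.0929).

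Glutathione and thioredoxin partners without selenium, the substrates and neighbours of the peroxidases and reductases, numbered 24 with 22 tested. For genotype 0 of 22 passed edgeR's test in either sex (2 had an unadjusted p under 0.05 in females and 0 in males; DESeq2 called 1, Gsr, in females), with medians of -0.03 in females and -0.04 in males. Gsr, which regenerates glutathione, was 62.1, 61.5 and 51.6 CPM in WTF and 117, 120 and 128 CPM in KOF, and 149, 159 and 150 CPM in WTM and 175, 104 and 139 CPM in KOM. WTF mice were below every other mouse. The female genotype log2 fold change was 1.05 (SE 0.21, edgeR adjusted p = 0.0962; DESeq2 0.00258; 0.00938 in edgeR without WTF mouse 1091 and up to 0.351 without another), and the difference between the sexes was 1.19 (SE 0.28, edgeR adjusted p = 0.0829, 0.0243 without mouse 1091; DESeq2 0.00517). Between wild type sexes Gsr passed (-1.36, SE 0.22, edgeR adjusted p = 0.0133), though not on leaving out every mouse (up to 0.0932).

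Prdx1, a peroxiredoxin, was 1878 ± 126 CPM in WTF and 1150.0 ± 123 in KOF, against 1116 ± 112 in WTM and 1172 ± 58.2 in KOM, with WTF again the group apart. Its female genotype log2 fold change was -0.72 (SE 0.23, edgeR adjusted p = 0.190, 0.0413 without WTF mouse 1091), with a difference between the sexes of -0.78 (SE 0.25, edgeR adjusted p = 0.170; DESeq2 0.0160). In males the smallest p-values were those of Txnip (-0.32, SE 0.23) and Cat (0.17, SE 0.13). The Cat ranges did not overlap, where 8.87% of all genes had this property. The highest WTM mouse had 1271 CPM of Cat and the lowest KOM mouse 1333 CPM. Among knockouts 4 of 22 passed by sex, where 11.5% of all genes passed. Gclc, the first enzyme of glutathione synthesis (-1.53, SE 0.19, edgeR adjusted p = 0.000104), catalase, Cat (-0.81, SE 0.15, edgeR adjusted p = 0.00233), and Prdx2 (-0.72, SE 0.15, edgeR adjusted p = 0.00634) were lower in females, and Txnip, the thioredoxin inhibitor, was higher (0.85, SE 0.20, edgeR adjusted p = 0.0157).

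**Figure D4:**
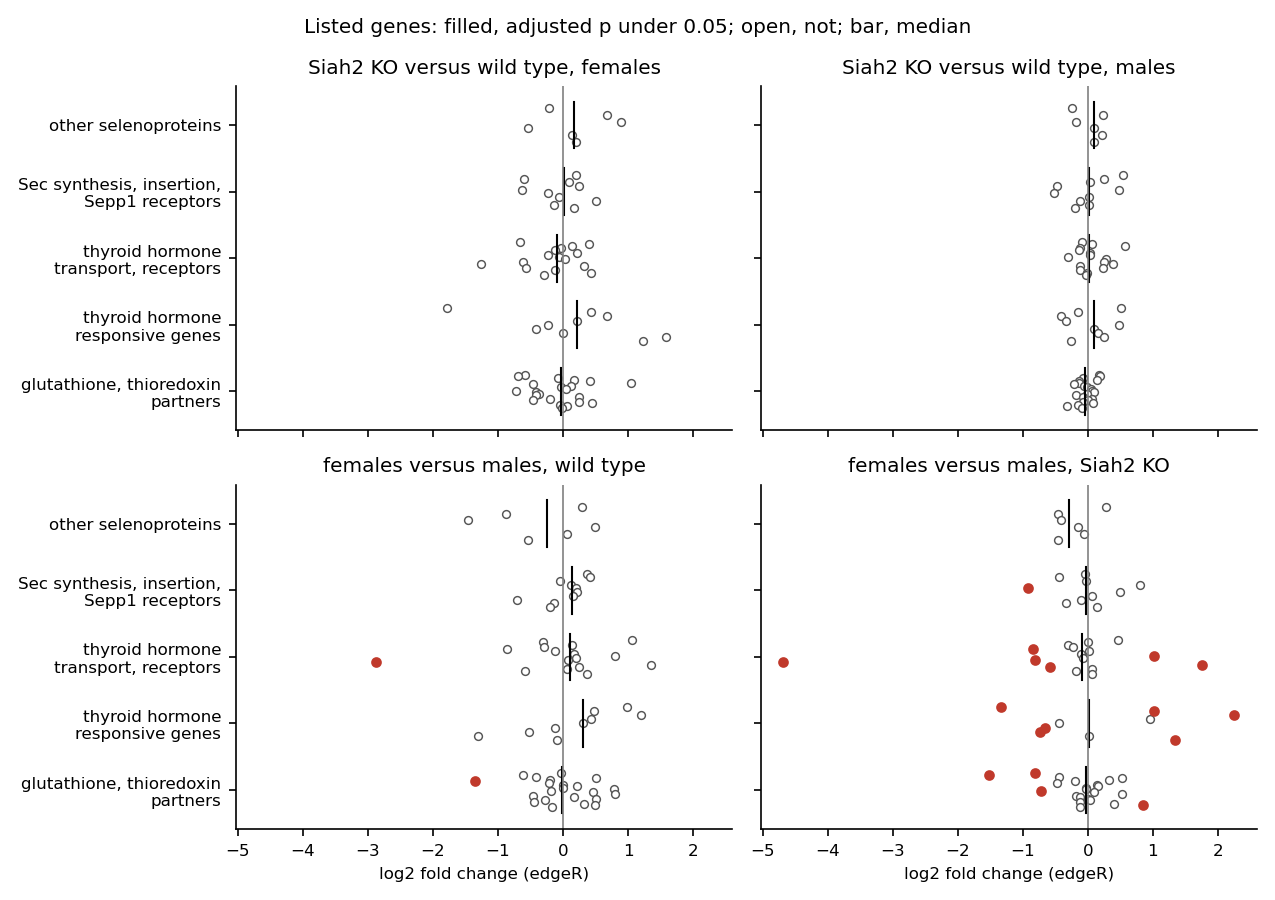
Log2 fold change (horizontal axes, linear in log2) of the tested genes of the 5 lists (vertical axes) in 4 comparisons, 1 point per gene. Filled points passed edgeR's test at an adjusted p of 0.05, open points did not, and the black bar is the list median. No filled point appears in either genotype panel, 2 appear for sex in wild types and 17 for sex in knockouts. Of all genes tested, 1.39% passed by sex in wild types and 11.5% in knockouts.

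Over the 5 lists, 63 genes were tested. For genotype edgeR called 0 in females (11 with an unadjusted p under 0.05, 3 with DESeq2, and 11 in edgeR without WTF mouse 1091) and 0 in males (2 with an unadjusted p under 0.05, 0 with DESeq2). For the difference between the sexes it called 0 (11 with an unadjusted p under 0.05, 4 with DESeq2, and 8 in edgeR without mouse 1091). By sex it called 2 in wild types (14 without mouse 1091) and 17 in knockouts. Of all genes tested, 0% passed for genotype in each sex, 0.255% for the difference, 1.39% by sex in wild types and 11.5% in knockouts.

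The genes whose pattern over the 12 mice was most like that of Dio1 were sought among the 6716 genes averaging 10 CPM or more, by Pearson's r of log2 CPM, as a description. The points share the 4 groups and the depth of the libraries. The highest were Phf2, a histone demethylase (r = 0.92, Spearman's rho = 0.94), Slc25a45 (r = 0.86, rho = 0.83), Extl3 (r = 0.83, rho = 0.71), Eng (r = 0.83, rho = 0.80) and Rab12 (r = 0.82, rho = 0.80). With the 2 mice farthest from the median of Dio1 left out, r was 0.90, 0.77, 0.82, 0.82 and 0.74. Phf2 was 23.0 ± 1.49 CPM in WTF, 19.7 ± 4.98 in KOF, 17.5 ± 2.34 in WTM and 22.1 ± 3.40 in KOM (mean ± SD, n = 3), the same order of groups as Dio1 with a narrower span. The lowest were Irs1, Arhgap29 and Mob3c (r = -0.81 each; -0.76, -0.82 and -0.68 without those mice). Irs1, the insulin receptor substrate, was 55.9 ± 6.99 CPM in WTF, 76.3 ± 19.2 in KOF, 94.8 ± 3.36 in WTM and 77.5 ± 5.74 in KOM. Of the other selenoprotein transcripts in the set, r with Dio1 over 12 mice was 0.48 for Sepp1 and for Gpx1 and -0.42 for Gpx4. Without the same 2 mice it was 0.44, 0.69 and -0.16, and Selk was then lowest at -0.39, so their order rests on those mice.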

How the data were processed

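Liver mRNA of 12 mice was counted with the Lexogen QuantSeq 3′ kit, 3 libraries per sex and genotype. The authors used Illumina's BaseSpace for trimming, mapping and counting, and the deposited values are raw counts of reads for each gene symbol, with 1 table for females and 1 for males. The submitters' processing notes name STAR, DESeq and mm10. The annotation, the tool versions and the handling of reads that match several places are not stated in the material used here. In these, 27 symbols had been turned into calendar dates by a spreadsheet and are not named here.

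Genes were filtered (filterByExpr), TMM-scaled and tested with edgeR 4.0.16 (quasi-likelihood F test, two-sided, Benjamini-Hochberg over all genes tested, threshold 0.05) in R 4.3.3. Each comparison was fitted on its own 2 groups, and the difference between the sexes on all 4. Log2 CPM used a prior count of 3. Alternatives were DESeq2 1.42.0, limma 3.58.1 (voom with sample quality weights), RLE scaling, no filter, a fit of all 12 libraries, leaving out Rn45s, the ribosomal RNA precursor (5.68 to 17.9% of counts), and leaving out each mouse. The fitting code was tested on simulated data. The members and the gene lists were chosen with earlier results of these data known. Genes named from a list are those edgeR called in a comparison, at most 6 by p, or the 2 with the smallest p where none was called, and for likeness to Dio1 the 5 highest and 3 lowest correlations. Older symbols were matched through RefSeq synonyms, and selenoproteins F and V were not analysed here. Some listed genes that the rule would name are not reported here.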

Additional observations from a re-analysis of the deposited data

Results flagged for a closer look

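Bcl3, on the list of thyroid hormone responsive genes, had group means in opposite order by genotype in the sexes. Every KOF mouse was below every WTF mouse and every KOM mouse above every WTM mouse. Ranges without overlap occurred in 23.3% of all genes in females and 8.87% in males. In males the gap was narrow, from 7.04 CPM in the highest WTM mouse to 7.39 CPM in the lowest KOM mouse. Bcl3 did not pass edgeR's test or DESeq2 in males. The difference between the female and male log2 fold changes was -2.30 (SE 0.52), which did not pass edgeR's quasi-likelihood test (adjusted p = 0.0786) and passed with DESeq2 (adjusted p = 0.0179). Its levels were low, at 2.95 to 15.9 CPM.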

How the results depend on the processing

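No paired analysis was possible because mouse numbers are not shared between groups. Of 585 member values over the comparisons and alternatives, 11 gained a call and 8 lost one, and 4 described values moved by more than the spread. The sign changed in 23, none of them called: 14 in the male genotype comparison, where Selk (up to 0.18), Txnrd1 (up to 0.08), Txnrd2 (up to 0.07), Sephs2 (down to -0.08) and Sepp1 (-0.0071) lay near 0, 4 by sex in wild types and 5 by sex in knockouts. RLE scaling and leaving out Rn45s changed no member's call. Females against males in wild types gave 0.15 for Sephs2 with limma-voom sample weights. On leaving out a mouse that comparison ran from -0.38 to 0.21 for Sephs2 (above 0 without WTF 1091 or WTM 1055) and from -0.41 to 0.0027 for Sepw1 (above 0 without WTF 1091). In knockouts it ran from -0.11 to 0.30 for Txnrd2 (below 0 without KOF 1104, KOM 1075 or KOM 1076) and from -0.047 to 0.11 for Selk (below 0 without KOF 1070 or KOM 1076).

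Members called for genotype in females (0 by edgeR) were 1 with DESeq2, 3 with limma-voom sample weights, 1 in the fit of all 12 libraries and 0 to 2 on leaving out a mouse. By sex in wild types (0) they were 1 with limma-voom, 1 in the fit of all libraries and 0 to 1 without a mouse, and in knockouts (2) 1 with no filter, 0 in the fit of all libraries and 1 to 2 without a mouse. Listed genes called in females (0) were 3 with DESeq2, 12 with limma-voom, 5 with no filter, 3 in the fit of all libraries and 0 to 11 without a mouse. For the difference between the sexes (0) they were 4, 10 and 4 with DESeq2, limma-voom and no filter, and 0 to 8 without a mouse. By sex in wild types (2) they were 7, 12, 6 and 7 with DESeq2, limma-voom, no filter and all libraries, and 1 to 14 without a mouse, and in knockouts (17) 10 with all libraries and 9 to 17 without a mouse.

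Over all genes, females gave 0 calls by edgeR (1478 with an unadjusted p under 0.05), 303 with DESeq2, 1058 with limma-voom, 484 with no filter, 427 with all libraries and 0 to 936 without a mouse. Males gave 0 (357 with an unadjusted p under 0.05), 6 with DESeq2, 29 with no filter and 0 to 3 without a mouse. The difference between the sexes gave 25, then 260, 558 and 325 with DESeq2, limma-voom and no filter, and 0 to 522 without a mouse. Sex in wild types gave 130, then 338, 802, 536 and 505 with DESeq2, limma-voom, no filter and all libraries, and 43 to 740 without a mouse. Sex in knockouts gave 1044, then 352 with all libraries and 486 to 1056 without a mouse. Among the fits without a mouse, the highest counts in females, in the difference and in wild types were those without WTF 1091, and the cause of the other shifts was not tested.

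With 3 libraries a group and 17 to 46 reads of Sepw1 per library, a difference that did not pass is not shown to be absent. Leaving out a mouse leaves its group with 2 libraries.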
